A study of Mus musculus with 28 samples.

Results

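The regions described here carried H3K27ac peaks after 24h of TGF-β, and had none in untreated NMuMG cells or in cells given the MEK inhibitor UO126 with TGF-β for 24h. They were chosen by peak calls in 9 libraries. The overlapping peaks of all 15 H3K27ac lists were merged into 89050 consensus regions, and a region counted as called in a library with a peak there. The members are the 584 regions called in 0 of 3 libraries at 0h, 3 of 3 at 24h and 0 of 3 at ERKi 24h, which is 0.656% of all regions. NMuMG is a mouse mammary gland epithelial line, here its subclone NMuMG/E9, and all libraries come from that subclone. Untreated cells form the 0h group. Cells of the 4h and 24h groups received 2 ng/ml TGF-β with the solvent DMSO, and those of ERKi 4h and ERKi 24h received 25 µM UO126 from 30 min before the same TGF-β. Each group has 3 libraries, and nothing in the labels says whether these came from separate cultures, so any p-value below measures only the spread between libraries. Expression (10 RNA-seq samples) and input DNA (3 samples) were not analysed here.

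Acetylation of lysine 27 of histone H3 marks active promoters and enhancers. TGF-β drives epithelial to mesenchymal transition through SMAD factors, and it also activates the RAS, RAF, MEK and ERK kinase cascade. ERK raises the amount and activity of AP-1, the dimers of FOS and JUN proteins, and phosphorylates several ETS factors. UO126 blocks MEK, the kinase that phosphorylates ERK, so ERKi here means inhibition 1 step above ERK.

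Peak lists held between 50445 and 69180 peaks per library (median 57660), and the replicate 3 library had the longest list of its group in all 5 groups. The lists give no read totals, so sequencing depth is unknown. The pileup, the number of fragments stacked at a peak's summit, was solved from each peak's fold enrichment and p-value, and it is not scaled for depth. The lowest pileup that any library called was 8 to 11 fragments, so a region without a call may still carry fragments below that level, or more where the local background is high. In these bulk lists, fewer acetylated cells and less acetylation per cell cannot be told apart. The epithelial marker genes Cdh1 and Krt8 had a promoter peak in 15 of 15 libraries and Cldn4 in 11, but Krt18 in 1 and Epcam and Cldn7 in none. Of the basal markers, Krt5, Krt14 and Trp63 had none and Acta2 had a promoter peak in 2 libraries. Within 2500 bp of a start site Krt18 and Krt5 had a peak in all 15 libraries and Cldn7 in 10, while Epcam, Krt14 and Trp63 had none. Vim, Fn1, Cdh2 and Col1a1, genes of mesenchymal cells, had 1 in all 15. The promoters of 10 leukocyte, endothelial and adipocyte marker genes had none, and Spi1 was not matched to the annotation. Within 2500 bp of a start site the leukocyte marker Itgam had a peak in 4 libraries.

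AP-1 sites are shown first, as examples. Outside promoters, 73.3% of the members held a match to the AP-1 motif TGANTCA within 500 bp of the summit. So did 71.1% of the gained regions called in all 3 ERKi 24h libraries, and 47.7% of all regions outside promoters. This window was chosen after results were seen. Within 100 bp, the window first planned, 5.82% of members and 5.87% of all regions held a match. The following windows of 121 bases, from the NCBIM37 (mm9) assembly and its forward strand, are centred on the match nearest to a member's summit, with every AP-1 match in capitals. They were taken from members near genes of the study, TGF-β, ERK, growth factor and matrix lists, from the isolated members and the largest loci, and from those with a difference at 4h. Members of these groups without a match could not be shown. Among them were members in introns of Etv5, Cald1 and Mast4, near Gm12726 and in the largest locus on chromosome 9. The Pcyt1b window holds matches in a pair 5 bases apart and lies between a pair of members at that gene's promoter. The Rasa1 window is shared by neighbouring members, and its match lies between them. The Pmepa1, Ier3 and Il11 matches lie outside their member regions.
Pmepa1, chr2:173094359-173094479: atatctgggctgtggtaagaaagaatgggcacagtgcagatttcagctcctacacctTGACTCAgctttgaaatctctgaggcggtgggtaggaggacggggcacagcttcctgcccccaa
Ier3, chr17:35956920-35957040: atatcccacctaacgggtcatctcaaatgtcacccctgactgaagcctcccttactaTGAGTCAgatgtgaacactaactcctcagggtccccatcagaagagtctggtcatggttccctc
Il11, chr7:4731688-4731808: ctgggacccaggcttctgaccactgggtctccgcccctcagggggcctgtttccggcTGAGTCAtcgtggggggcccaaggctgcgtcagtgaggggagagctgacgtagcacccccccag
Dusp2, chr2:127149390-127149510: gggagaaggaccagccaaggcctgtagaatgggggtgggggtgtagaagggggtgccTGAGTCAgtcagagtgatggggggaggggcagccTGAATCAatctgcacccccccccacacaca
Egr3, chr14:70467781-70467901: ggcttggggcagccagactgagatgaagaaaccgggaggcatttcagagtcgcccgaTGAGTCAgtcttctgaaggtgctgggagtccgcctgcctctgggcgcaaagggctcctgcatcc
Mmp13, chr9:7240180-7240300: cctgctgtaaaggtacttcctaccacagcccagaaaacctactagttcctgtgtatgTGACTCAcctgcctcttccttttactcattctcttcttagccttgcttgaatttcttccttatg
Pcyt1b, chrX:90976353-90976473: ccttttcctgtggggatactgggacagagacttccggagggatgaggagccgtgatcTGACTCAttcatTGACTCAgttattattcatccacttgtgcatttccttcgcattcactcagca
D230004N17Rik, chr9:41296224-41296344: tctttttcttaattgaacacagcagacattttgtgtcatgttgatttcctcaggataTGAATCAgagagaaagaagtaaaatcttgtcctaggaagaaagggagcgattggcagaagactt
Rasa1, chr13:85538448-85538568: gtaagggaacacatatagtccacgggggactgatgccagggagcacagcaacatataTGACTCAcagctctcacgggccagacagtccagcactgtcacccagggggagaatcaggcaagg
Gm9869, chr9:60847031-60847151: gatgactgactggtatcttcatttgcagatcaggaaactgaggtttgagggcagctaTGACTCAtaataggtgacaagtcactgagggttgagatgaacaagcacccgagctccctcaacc

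**Figure D1:**
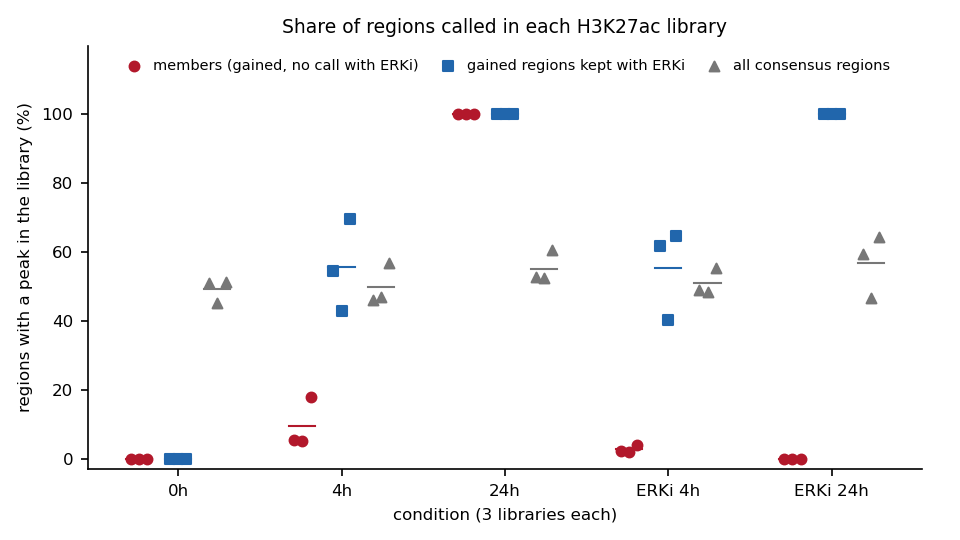
Share of regions with a peak in each library (vertical axis, %) for the 584 members, the 2003 gained regions kept with ERKi and all 89050 regions, with 3 libraries per condition (points) and their mean (line). The values of 0 and 100 at 0h, 24h and ERKi 24h were fixed by the choice of regions; at 4h the members had 5.48, 5.14 and 17.8% and at ERKi 4h 2.23, 2.05 and 3.94%.

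The members are a minority of what was gained by 24h. A region was called gained when all 3 libraries at 24h and none at 0h had a peak, which held for 4376 regions (4.91% of all). Of these gained regions 584 (13.3%) were called in no ERKi 24h library, 469 (10.7%) in 1, 1320 (30.2%) in 2 and 2003 (45.8%) in all 3. The 2003 are used below as the comparison set, the gained regions kept with ERKi. Nearly all of the 1320 regions with 2 calls, 1289, lacked the call of ERKi 24h replicate 2, whose list is the shortest of its group with 56042 peaks against 64660 and 69180. Without regard to 0h, 1077 regions (1.21%) were called in 3 of 3 libraries at 24h and 0 of 3 at ERKi 24h, and 584 of them are members by the rule. The number of members rested on 24h replicate 2 more than on any other library: without it the rule found 1873 regions, and without 24h replicate 1 it found 952.

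The members carried weaker peaks at 24h than the kept regions. These values come from the libraries that chose the members and are given as description. Median pileups were 25, 19 and 25 fragments in replicates 1 to 3 at 24h, against 48, 25 and 49 in the kept regions. Over all member peaks at 24h the pileup was 11 to 288 with a median of 22, the local background had a median of 3.78 fragments and the fold enrichment over it a median of 4.10. In the kept regions these medians were 35 fragments, 6.39 fragments and 4.46. The members were also narrower, with a median width of 540 bp against 1055 bp. The weakest of a member's 3 calls at 24h had a -log10 q between 1.94 and 26.6 (median 4.96), below 3 in 48 members and at 10 or more in 44. Just outside the rule lay 1796 regions with 2 of 3 calls at 24h and none in the other 6 libraries, whose calls had a median -log10 q of 5.62. Another 603 regions had all 3 calls at 24h and a single call in those 6 libraries (median 5.15), 234 of them in ERKi 24h replicate 1 and 230 in replicate 3.

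A member without a call with ERKi was not always without acetylation around it, so the absence of a call cannot be read as a need for MEK at every member. Of the 584 members, 366 (62.7%) had no peak of any 0h or ERKi 24h library within 2 kb and are called isolated members here. The other 218 (37.3%) had such a peak, and 81 (13.9%) had 1 in each of the 6 libraries. The isolated members had a median pileup of 21 fragments over a background of 3.31 (fold 4.75). The 81 had a median pileup of 47.3 fragments over a background of 16.2 (fold 2.72). The members with the highest pileups were mostly of the second kind, so both kinds are described below.

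**Figure D2:**
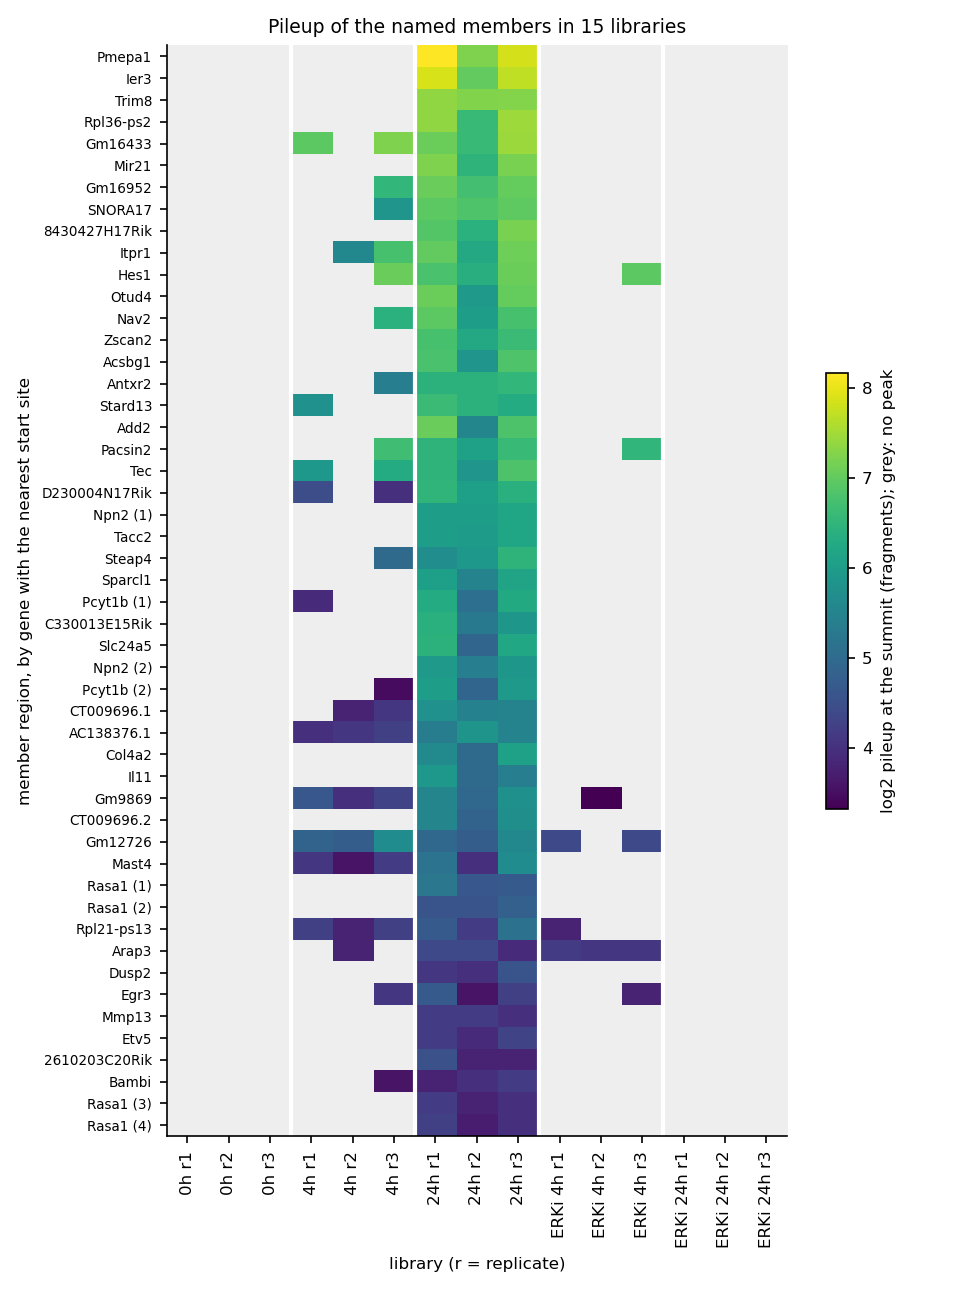
Pileup at the summit (log2 of fragments, colour) of the named members (rows, labelled by the gene with the nearest start site, numbered where a gene has several) in the 15 libraries (columns); grey means no peak. Rows are ordered by their mean pileup percentile at 24h, from Pmepa1 with 288, 150 and 233 fragments down to a Rasa1 region with 19, 13 and 16, and scattered calls at 4h are mostly in replicate 3.

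Pmepa1 encodes a membrane protein that TGF-β induces and that limits SMAD signalling. The member in its intron (chr2:173093689-173094250, 7735 bp from the start site) had 288, 150 and 233 fragments at 24h and no call in the other 12 libraries. Its fold enrichment was only 1.31, 1.45 and 1.35 over a high local background. The strongest other peak within 2 kb had 468, 211 and 333 fragments at 24h, 526, 226 and 486 at ERKi 24h, and 130, 87 and 90 at 0h. The pileup beside this member was thus not lower with ERKi at 24h.

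Ier3, an immediate early gene that ERK signalling induces, had a member 2074 bp upstream of its start site (chr17:35956381-35956785). Its pileups at 24h were 235, 128 and 209 fragments (fold 1.99, 1.91 and 2.25). The strongest peak within 2 kb had 228, 142 and 194 fragments at 24h and 277, 150 and 197 at ERKi 24h, so the groups overlapped there. Mir21, the gene of a microRNA abundant in many tumours, had a member 6126 bp downstream of its start (chr11:86391157-86391741) with 150, 89 and 146 fragments at 24h. The strongest peak beside it had 204, 134 and 191 fragments at 24h and 217, 133 and 235 at ERKi 24h. Hes1, a transcriptional repressor and target of Notch, had a member in its promoter (chr16:30064531-30064897) with 110, 82 and 135 fragments at 24h. This region was also called in replicate 3 at 4h (133 fragments) and at ERKi 4h (124). The strongest peak beside it had 207, 95 and 165 fragments at 0h, 147, 134 and 154 at 24h and 194, 134 and 224 at ERKi 24h. Trim8, which encodes an E3 ubiquitin ligase, had an intronic member (chr19:46578958-46579277) with 165, 152 and 154 fragments at 24h, beside peaks of 207 to 483 fragments in the 0h and ERKi 24h libraries.

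At 2 of the 20 members with the highest pileups, fewer than 2 libraries at ERKi 24h had a peak within 2 kb. Antxr2 encodes a receptor for anthrax toxin that binds matrix proteins. Its member 4588 bp upstream (chr5:98464299-98464942) had 87, 87 and 92 fragments at 24h and 42 in replicate 3 at 4h. No ERKi 4h or ERKi 24h library had a peak within 2 kb of it, whereas the 24h libraries had further peaks of 100, 110 and 119 fragments and 0h replicate 3 had 1 of 44. Acsbg1 encodes a fatty acid activating enzyme. Its intronic member (chr9:54485329-54485629) had 110, 58 and 114 fragments at 24h, with flanking peaks of 141, 99 and 150 at 24h and a flanking peak in 1 ERKi 24h library, replicate 3 (91). These contrasts hold for the 2 kb window only. Each of the 6 libraries of 0h and ERKi 24h had a peak within 3816 bp of the Antxr2 member and 3863 bp of the Acsbg1 member.

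Within 2 kb the isolated members give a cleaner on and off pattern, at lower pileups. However, their definition fixes this pattern at 0h, 24h and ERKi 24h. The highest by pileup lay in an intron of the long non-coding RNA gene D230004N17Rik on chromosome 9 (chr9:41295231-41296322). It had 90, 67 and 84 fragments at 24h, 22 and 16 in replicates 1 and 3 at 4h, and no call elsewhere. Its weakest call at 24h had the highest -log10 q of all members, 26.6. Pcyt1b encodes an enzyme of phosphatidylcholine synthesis. Its promoter held a pair of members (chrX:90975376-90976338 and chrX:90976521-90977550) with 79, 34 and 77 and with 65, 30 and 62 fragments at 24h, more than 5-fold above the background in each library. The nearest peak of any 0h or ERKi 24h library lay 28488 bp away, and at 4h each had a single call, of 15 fragments in replicate 1 and of 11 in replicate 3. Slc24a5, the gene of a cation exchanger, lay 53341 bp from a member (chr2:124839774-124840882) with 87, 30 and 75 fragments at 24h and none elsewhere. Steap4, which encodes a metalloreductase, held a member in a UTR (chr5:7980351-7981525) with 52, 60 and 89 fragments at 24h and 32 in replicate 3 at 4h. Other isolated members lay in introns of Cald1 (66, 66 and 72 fragments at 24h), the gene of the actin binding protein caldesmon, and of Tacc2 and Fgfr2, which overlap there (65, 63 and 73 fragments). Beyond 2 kb, several of these members had peaks in each of the 6 libraries of 0h and ERKi 24h. Such peaks lay within 6567 bp of the D230004N17Rik member, 4745 bp at Steap4, 3675 bp at Cald1 and 3683 bp at Tacc2. For the Slc24a5 member the nearest peak of any of these libraries was 17873 bp away.

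Few members had a gene of the listed pathways as their nearest. Across 178 listed genes, the nearest start site within 100 kb was that of a listed gene for 9 members (1.54%), against 1.65% of the kept regions and 1.67% of all regions. Counting protein-coding genes alone, it was 13 members (2.23%), against 50 kept regions and 2.32% of all regions. The list of ERK feedback and AP-1 genes had 4 members (0.685%), against 0.250% of the kept regions and 0.257% of all regions, and these were near Dusp2, Egr3, Etv5 and Ier3. With protein-coding genes alone these shares were 0.685, 0.449 and 0.378%. Counting any gene, the other lists had lower shares than all regions. For TGF-β genes it was 0.342 against 0.365%, for study genes 0.171 against 0.325%. For growth factor genes it was 0.171 against 0.226%, for matrix genes 0.342 against 0.408%. With protein-coding genes alone, TGF-β genes (0.514 against 0.504%) and growth factor genes (0.342 against 0.304%) lay slightly above all regions. The list of EMT factors and cytoskeleton genes had no member, or 1, near Runx2, with protein-coding genes alone.

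The members near ERK feedback genes other than Ier3 were weak. Dusp2 encodes a phosphatase that inactivates ERK, and its member 12555 bp upstream (chr2:127149050-127149455) had 17, 16 and 24 fragments at 24h and none elsewhere. Egr3, an early growth response factor, had a member 9564 bp upstream (chr14:70467371-70467862) with 26, 12 and 19 fragments at 24h, 17 in replicate 3 at 4h and 14 in replicate 3 at ERKi 4h. Etv5, an ETS factor induced by ERK, had a member in its own intron (chr16:22428660-22429559) with 18, 15 and 20 fragments at 24h and none elsewhere. All 3 had no 0h or ERKi 24h peak within 2 kb.

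Among cytokine, matrix and TGF-β genes, Il11 stood nearest to its member. Il11 encodes interleukin 11, a secreted cytokine of the IL-6 family. The member, in an intron of the gene and 1879 bp from a start site (chr7:4731368-4731733), had 60, 32 and 42 fragments at 24h and no call in the other 12 libraries. The strongest peak within 2 kb of it had 85, 37 and 64 fragments at 24h, 41 and 26 in replicates 1 and 3 at ERKi 24h, and 23 and 21 in replicates 1 and 3 at 4h. No 0h or ERKi 4h library had a peak within 2 kb. Slightly farther out, each of the 6 libraries of 0h and ERKi 24h had a peak within 2419 bp of this member. Col4a2, a chain of basement membrane collagen, had an intronic member (chr8:11391300-11391573) with 49, 32 and 68 fragments at 24h, beside peaks of 118, 47 and 125 fragments at ERKi 24h and 87, 60 and 95 at 24h. Mmp13, a collagenase, had a member 32025 bp upstream (chr9:7240114-7240894) with 18, 18 and 16 fragments at 24h, and peaks of 14 to 30 fragments lay within 2 kb in every 0h and ERKi 24h library. Bambi, a pseudoreceptor that inhibits TGF-β signalling, had a member 27071 bp upstream with 14, 16 and 18 fragments at 24h and 12 in replicate 3 at 4h. With protein-coding genes alone the lists gained Enc1, Tgif1, Fgfr1 and Runx2, each more than 50 kb from its member, and pileups there were 13 to 33 fragments at 24h.

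The calls of the 4h and ERKi 4h libraries were not part of the rule, and they were compared to see whether the members differed with the inhibitor at the earlier time. Their peaks did enter the merging that set the borders of all regions, so they are not fully independent of the choice. Members were called at 4h 32, 30 and 104 times in replicates 1 to 3, a mean of 9.47% ± 7.22 (SD, n = 3). At ERKi 4h they were called 13, 12 and 23 times, a mean of 2.74% ± 1.04 (SD, n = 3). The lowest 4h library lay above the highest ERKi 4h library, and 4h was higher within each replicate number. Replicate 3 at 4h carried most of the size of this difference; without it the mean at 4h was 5.31%. Without ERKi 4h replicate 1, whose library number breaks the order of the other peak names, the mean at ERKi 4h was 3.00%. Over all regions the shares were 46.2, 47.0 and 56.7% at 4h and 48.9, 48.5 and 55.3% at ERKi 4h, and over the kept regions 55.6% ± 13.3 and 55.5% ± 13.3 (SD, n = 3 each). With each list shortened to its 50000 peaks of highest -log10 p, and the members found anew (569), the shares were 14.1, 8.26 and 11.6% at 4h and 4.39, 2.28 and 1.93% at ERKi 4h. Replicate 3 was then no longer the highest at 4h. With peaks of -log10 q of at least 5 the shares of 470 members were 9.57, 3.62 and 18.5% at 4h and 4.04, 1.91 and 3.40% at ERKi 4h. The groups then overlapped, though 4h was still higher within each replicate number.

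Most members had no peak at the earlier time in either condition. At 4h 458 members (78.4%) were called in no library, 94 in 1, 24 in 2 and 8 in all 3. Of the kept regions 23.9% and of all regions 38.5% were called in no 4h library. At ERKi 4h 543 were called in none, 35 in 1, 5 in 2 and 1 in all 3, and 25.4% of the kept regions and 37.5% of all regions were called in none. The isolated members gave the same order at lower levels, with 14, 14 and 56 called at 4h and 5, 7 and 9 at ERKi 4h.

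**Figure D3:**
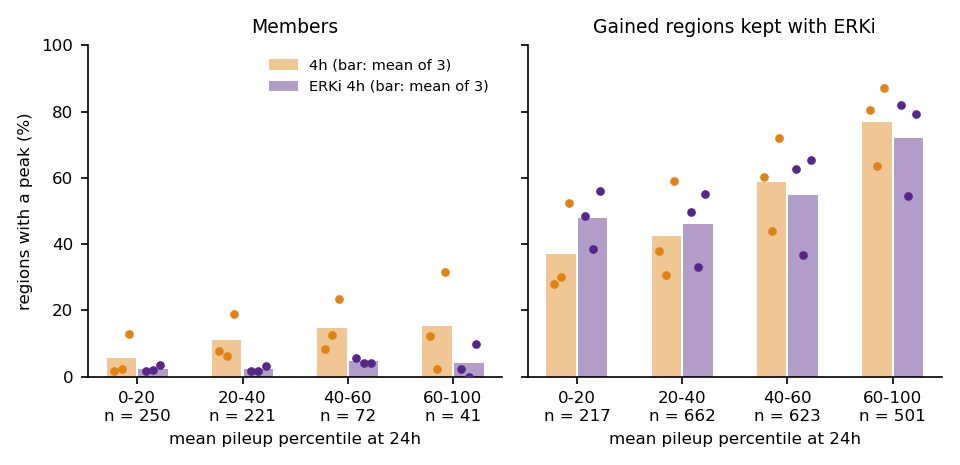
Share of regions with a peak at 4h and at ERKi 4h (vertical axis, %), in bins of the region's mean pileup percentile at 24h (horizontal axis, with the number of regions n), for members and for gained regions kept with ERKi; bars are means of 3 libraries, shown as points. In members of the 20 to 40 bin the means were 11.0% at 4h and 2.26% at ERKi 4h, against 42.6 and 46.0% in the kept regions of that bin.

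Since the members were weaker than the kept regions at 24h, the shares at 4h were also compared at like strength. A region's strength was its mean pileup percentile within the 3 lists at 24h. In the bin of 20 to 40 the members (221) were called in 11.0% at 4h and 2.26% at ERKi 4h, and the kept regions (662) in 42.6 and 46.0%. In the bin of 40 to 60 the members (72) were called in 14.8 and 4.63% and the kept regions (623) in 58.9 and 55.0%. In all 4 bins the mean over the 4h libraries was higher than that over the ERKi 4h libraries in the members, and in the kept regions the order changed between bins. These sets were chosen by their calls at ERKi 24h, so the difference between them is a description.

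For single regions the test of 4h against ERKi 4h could not pass a threshold. A two-sided exact permutation test on the pileup percentile, with 3 libraries against 3, cannot go below 0.1, and the lowest Benjamini-Hochberg adjusted p over 89050 regions was 1. The libraries at 4h lay above those at ERKi 4h without overlap in 7 members (1.20%), against a background of 2.46% of all regions and 2.90% of the kept regions. The reverse held for 1 member (0.171%), against 2.58% of all regions and 2.60% of the kept regions. Members were called in 3 of 3 libraries at 4h and 0 of 3 at ERKi 4h in 4 cases (0.685%), against a background of 0.314% and 0.699% of the kept regions. The reverse order was found in none, against a background of 0.221% and 0.499% of the kept regions. Since most members had no peak in these 6 libraries, few could differ in either direction, and both shares without overlap lay below the background. Without 4h replicate 1 the count of 7 became 16 (2.74%, against 5.28% of all regions), and without 4h replicate 2 it became 20 (3.42%, against 4.94%).

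The 5 of these 7 members with the largest difference, and the 1 in the reverse direction, are described here. A member on chromosome 7 (chr7:86111717-86112452, 53058 bp from Isg20, an interferon induced exonuclease gene) had 16, 17 and 19 fragments at 4h, none at ERKi 4h and 41, 57 and 45 at 24h. A member on chromosome 9 (chr9:60846345-60847147, 160870 bp from Gm9869) had 25, 16 and 20 fragments at 4h, 10 in 1 ERKi 4h library and 46, 31 and 54 at 24h. Mast4, a kinase gene, held an intronic member (chr13:103638862-103639718) with 17, 12 and 18 fragments at 4h, none at ERKi 4h and 36, 16 and 51 at 24h. A member on chromosome 4 (chr4:105313136-105313525, nearest to Gm12726) had 29, 27 and 51 fragments at 4h, 21 in replicates 1 and 3 at ERKi 4h and 31, 27 and 48 at 24h. The strongest peak within 2 kb of it had 81, 47 and 75 fragments at 0h, 106, 65 and 113 at 24h and 93, 56 and 86 at ERKi 24h. At 4h that peak had 89, 50 and 113 fragments, and at ERKi 4h 43, 42 and 48. A member near the pseudogene Rpl21-ps13 (chr7:146910765-146911484) had 19, 14 and 19 fragments at 4h and 14 in replicate 1 at ERKi 4h. The member in the reverse direction, 27624 bp from Arap3, had 18, 17 and 17 fragments at ERKi 4h, 14 in replicate 2 at 4h and 21, 21 and 15 at 24h.

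The regions around the members moved the same way as the members more often than regions did in general. The comparisons of 24h with ERKi 24h and 0h use the libraries that chose the members, and neighbours of the kept regions were not compared. Within 2 kb of a member lay 495 other regions, and at 24h 94 of them had pileup percentiles above ERKi 24h without overlap, where 5.61% of all regions did, and 11 (2.22%) had the reverse, against 7.56%. Of the 3701 regions between 2 and 50 kb, 9.73% were higher at 24h and 4.84% higher at ERKi 24h. They were also higher at 24h than at 0h without overlap in 19.9%, against 12.7% of all regions. At 4h, in libraries that entered the merging but not the rule, 5.11% of these 3701 regions lay above ERKi 4h and 1.41% below, and of the 495 nearer regions 7.68% above and 0.606% below. Of all regions 2.46% lay above and 2.58% below. Neighbouring regions share their surroundings and may be parts of a single acetylated domain, so these shares are a description.

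Members lay mostly apart from each other. Of 584, 130 (22.3%) had another member within 50 kb, against 37.0% of the kept regions, a set that is larger. They formed 60 loci of 2 or more members and 8 of 3 or more. Counting protein-coding genes, 505 different genes were nearest to a member, and 10 of them to 3 members or more, among them Sema3a, a guidance cue, Ndp, a ligand of Frizzled-4, and Sox4, a transcription factor that TGF-β induces, whose 3 members lay 108199 to 200518 bp away.

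**Figure D4:**
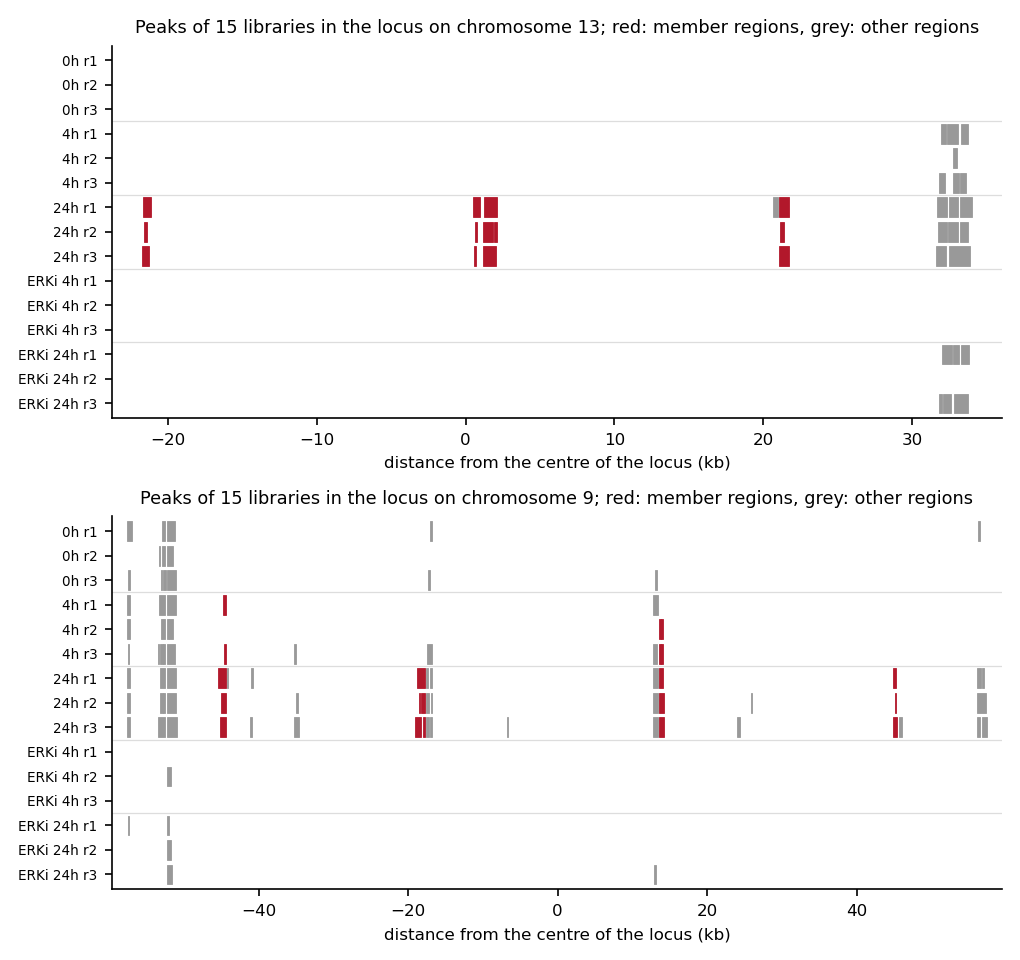
Peaks of the 15 libraries (rows) in the loci with the most members, by distance from the centre of the locus (kb); red bars are peaks in member regions and grey bars peaks in other regions. The ERKi 4h libraries had 0 peaks in the upper window and 0, 1 and 0 in the lower, where the 24h libraries had 14, 15 and 18.

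The loci with the most members, 4 each, lay on chromosomes 9 and 13. The locus on chromosome 9 (chr9:41295231-41386055) spanned 90825 bp inside D230004N17Rik, a long non-coding RNA gene that also holds annotated microRNA genes. Its members had 90, 67 and 84, then 46, 29 and 53, then 55, 44 and 45, and then 23, 14 and 14 fragments at 24h. Within 20 kb on either side of the locus the number of peaks was 5, 3 and 6 at 0h, 5, 6 and 11 at 4h and 14, 15 and 18 at 24h. With ERKi it was 0, 1 and 0 at 4h and 2, 1 and 2 at 24h. In this wider window the ERKi libraries thus held fewer peaks than the untreated ones at both times, without overlap between the groups. Most of the 0h peaks lay about 51 to 58 kb upstream of the centre, outside the locus. Inside the locus, 0h replicate 2 had no peak and ERKi 24h replicate 3 had a peak of 14 fragments, so the groups overlapped there. The ERKi peaks were mostly those about 52 kb upstream of the centre, near the start of D230004N17Rik, with at most 31 fragments against 41 to 49 for the highest peak in the window at 0h.

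The locus on chromosome 13 (chr13:85515730-85559224) was a gene desert without an annotated gene within 50 kb, and the nearest start site was that of Rasa1, a GTPase activating protein for RAS, 87135 to 129692 bp away. Its 4 members had at most 38, 25 and 28 fragments at 24h and no call in any other library. Around them no library at 0h or ERKi 4h had a peak. At 4h the number of peaks was 3, 1 and 3, at 24h 8, 8 and 6, and at ERKi 24h 3, 0 and 3, all of the latter about 33 kb from the centre and outside the member regions.

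The members were almost all distal. Promoters, taken as 1000 bp upstream to 100 bp downstream of a start site, held 15 members (2.57%, 95% exact binomial interval 1.44 to 4.20), against 3.20% of the kept regions and 11.8% of all regions. Introns held 42.5% and intergenic sequence 52.7%, against 47.7 and 45.4% in the kept regions. The median distance to a start site was 21198 bp, against 16390 bp in the kept regions and 14434 bp in all regions outside promoters. More than 100 kb from any start site lay 74 members (12.7%, 10.1 to 15.6), against 7.19% of the kept regions (6.10 to 8.41). The intervals cover counting error only, and neighbouring regions are not independent. GC content within 100 bp of the summit had a median of 45.8% in the members, 47.8% in the kept regions and 48.3% in all regions outside promoters.

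**Figure D5:**
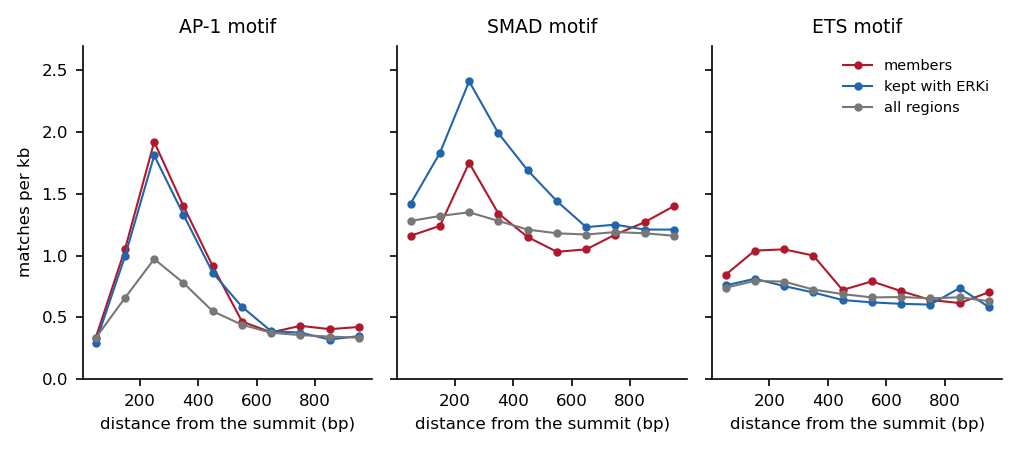
Matches per kb (vertical axis, both strands) to the AP-1, SMAD and ETS motifs by distance from the summit (horizontal axis, bp, bins of 100 bp) in members, gained regions kept with ERKi and all regions, all outside promoters. AP-1 density was highest at 200 to 300 bp, with 1.92 matches per kb in members, 1.81 in kept regions and 0.972 in all regions.

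Motifs were searched on both strands as fixed letters, none of which holds another whole, and a match is no evidence of binding. Within 100 bp of the summit an AP-1 match was present in 5.82% of members and in 5.87% of all regions. The density of matches had its maximum away from the summit, at 200 to 300 bp, where it was 1.92 per kb in the members, 1.81 in the kept regions and 0.972 in all regions outside promoters. Within 500 bp, a window chosen after these profiles were seen, 73.3% of the members outside promoters held a match (95% exact binomial interval 69.4 to 76.9). A match in this window can lie outside the region, whose median width was 540 bp in members and 1055 bp in kept regions. The kept regions had 71.1% (69.0 to 73.1) and all regions outside promoters 47.7% (47.3 to 48.0). AP-1 matches were thus more frequent in both gained sets than in regions at large, and the intervals of the members and the kept regions overlapped. In the isolated members the share was 75.4%.

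Within 500 bp the members and the kept regions differed more in other motifs. Within 100 bp, the window first planned, the intervals of members and kept regions overlapped for SMAD, ETS and TEAD. There SMAD was found in 18.8% of members outside promoters (15.7 to 22.3) and 22.9% of kept regions (21.0 to 24.8), ETS in 15.1% (12.3 to 18.3) and 14.1% (12.6 to 15.7), and TEAD in 9.14% (6.90 to 11.8) and 11.1% (9.77 to 12.6). All following values are for 500 bp unless stated. The SMAD motif CAGACA was found within 500 bp in 71.5% of members (67.6 to 75.2), 82.8% of the kept regions (81.0 to 84.4) and 67.2% of all regions outside promoters. The ETS motif GGAAGT was found in 60.3% of members (56.1 to 64.3), 51.4% of the kept regions (49.1 to 53.6) and 51.7% of all regions. The TEAD motif GGAATG was found in 42.9% of members (38.8 to 47.1), 51.0% of the kept regions (48.8 to 53.3) and 48.8% of all regions. The SMAD density at 200 to 300 bp was 1.75 per kb in members and 2.41 in the kept regions, and that of ETS was 1.05 and 0.753. RUNX (TGTGGT) was found in 62.2% of both sets and 57.9% of all regions. An AP-1 and a SMAD match together were present in 52.2% of members and 58.5% of the kept regions, and an AP-1 and an ETS match together in 45.7 and 37.0%.

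The order of these shares was the same at like strength. In the 20 to 40 bin of the pileup percentile at 24h, SMAD matches were in 69.9% of 219 members (63.3 to 75.9) and 80.5% of 646 kept regions (77.2 to 83.5), and ETS matches in 59.4% (52.5 to 65.9) and 52.0% (48.1 to 55.9). In all 4 bins the members had the lower share for SMAD and TEAD and the higher share for ETS, while AP-1 changed order between bins. The intervals of members and kept regions overlapped within each bin for ETS and TEAD, and for SMAD in 3 of the 4 bins. The median GC of the members was lower than that of the kept regions in each bin, by which motif shares can differ, and its part in these differences was not tested. The other motifs searched were cAMP response (TGACGT, 9.14% of members outside promoters and 9.54% of kept regions), forkhead (TGTTTAC, 15.3 and 12.8%), SOX (ACAATG, 47.6 and 44.4%), Snail/ZEB E-box (CAGGTG, 46.0 and 49.7%), GRHL (AACNGGTT, 7.38 and 6.34%) and KLF/SP (GGGCGG, 12.5 and 12.6%). Of all regions outside promoters these motifs were found in 10.6, 16.3, 41.9, 51.4, 7.21 and 20.9%.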

How the data were processed

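H3K27ac ChIP-seq peak lists of 15 libraries were analysed. The authors used bowtie for alignment to mm9 and MACS2, at default settings, for a separate peak list per library. Whether an input was used for peak calling is not given in the sources used here. The deposited files give for each peak a fold enrichment over the local background, which is a ratio, and a -log10 p and a -log10 q value. The 10 RNA-seq and 3 input samples were not analysed here. The members, gene lists and motifs were chosen with earlier results of these data known.

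Peaks overlapping by 1 bp or more were merged. Pileup and background were solved from fold enrichment, (pileup + 1)/(background + 1), and -log10 p, the upper tail of a Poisson distribution; 25 of 893719 peaks were not matched within 0.005. Each peak was given its percentile by pileup within its list, and 0 was used where there was no peak. Start sites and gene models were those of GENCODE vM1 on NCBIM37 (mm9), and sequences were read from that assembly. A region's summit was that of its peak with the highest -log10 p. Named were the 20 members with the highest mean pileup percentile at 24h, members near listed genes, the largest loci, up to 5 members per direction without overlap between 4h and ERKi 4h and, added after the values were seen, the 10 isolated members with the highest percentile. 4h was compared with ERKi 4h by exact permutation tests with Benjamini-Hochberg adjustment, tested on simulated data. The replicate numbers 1 to 3 are shared by all conditions. Deviations from the group mean at 4h and ERKi 4h correlated between equal numbers (0.281, 0.403 and 0.481 over 62300 regions called in either) and at most 0.0153 between different numbers. Such deviations cancel within a group, so the low values between different numbers follow in part from the others. Replicate 3 also had the longest list in every group. The numbers were taken as pairs from the data, but this cannot show that equal numbers share a culture. The lists hold no read totals, so 3 libraries per condition set the precision. Alternatives were other peak thresholds, merging distances, promoter and motif windows, locus distances and percentile measures, and leaving out each library. Python 3.11.15, NumPy 2.4.6, pandas 2.3.3 and SciPy 1.17.1 were used.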

Additional observations from a re-analysis of the deposited data

How the results depend on the processing

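The number of members, 584, was 470 with peaks of -log10 q of at least 5, 569 with 50000 peaks per list, 432 with peaks within 500 bp merged, 503 when a peak had to cover at least 50% of the region and 584 on chromosomes 1 to 19 and X. Leaving out 1 library gave 589 to 1873, the highest without 24h replicate 2; the isolated members, an alternative chosen after seeing the data, number 366. The mean share of members called at 4h was 10.6% with the -log10 q minimum, 11.3% with 50000 peaks per list, 7.65% in isolated members and 5.31 to 11.6% without 1 library. At ERKi 4h it was 3.12, 2.87, 1.91 and 2.14 to 3.08%, so 4h had the higher mean in each of these. Members with 4h above ERKi 4h were 7, and 6 with percentiles by -log10 p or by fold; without 1 library they were 7 to 20, the highest without 4h replicate 2, and without 4h replicate 1 16. Isolated members gave 5 and, for the reverse direction, 0 in place of 1; that count was 1 without any single library. The share outside promoters was 88.9% with promoters widened to 2500 bp. The share with an AP-1 match rose with the window, from 5.82% to 39.6% at 250 bp and 73.5% at 500 bp, with 75.4% in isolated members outside promoters. The share with another member within 50 kb was 15.9% at 25 kb and 24.7% at 100 kb. The mean percentile of the named regions at 24h, 55.8, was 36.9 by -log10 p and 27.1 by fold enrichment. The cause of these shifts was not tested, except that wider windows and fewer libraries admit more regions by construction.

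With the replicate block, in which all 3 differences within replicate numbers had to have the same sign, 7 members were higher at 4h and 1 was higher at ERKi 4h, the same counts as without it, while over all regions these shares were 7.89 and 11.8%. The pairing was not applied to other comparisons.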
